A study of Rattus norvegicus with 12 samples.

Results

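The rostral ventrolateral medulla (RVLM) was compared between aged and middle-aged rats, to describe which named genes differed late in life. Both groups were male F344 rats, an inbred strain, bought from Charles River Laboratories under contract with the National Institute on Aging. The aged animals were 24 months old and the middle-aged animals 12 months old, with 3 animals in each group. All were kept on a regular light and dark cycle, anaesthetised with isoflurane and decapitated, and the RVLM was punched from the frozen brain, with no drug or genetic change in either group. Every array of these ages was taken, which gave 8 arrays of 6 animals out of 12 arrays of 9 animals in the series. The remaining 3 animals were 3 months old (young), and they entered the fit as a further group that shares the estimate of spread. Replicate 3 of each age was hybridised to a pair of arrays, which were averaged so that the animal was the unit. The labels name separate biological replicates and do not say which litter or cage an animal came from.

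The RVLM is the part of the brainstem whose excitatory neurons project to the spinal cord and set the sympathetic outflow that controls the heart and vessels. Many of these neurons are C1 neurons, which make catecholamines with the enzymes encoded by Th and Dbh, and they are restrained by inhibitory input that carries the baroreflex. Around them lie astrocytes, oligodendrocytes, blood vessels and microglia, the resident macrophages of the brain. A punch holds all of these cells and the blood left in its vessels. Fewer cells of a type and less RNA per cell cannot be told apart in such samples. Th, Dbh and the vesicular glutamate transporter gene Slc17a6 were well above background on all 8 arrays. Pnmt, which marks the adrenergic neurons most specifically, was not analysed here.

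A level here is the log2 of an array's processed signal minus the 75th percentile of that array, and a difference is the aged mean minus the middle-aged mean in log2 units, ± the standard error (SE) from limma with n = 3 animals per age. Between 73.45% and 77.09% of the spots on an array exceeded background clearly (the well-above-background flag of the scanner software), none of them saturated, and the number of animals limits the precision. Repeat arrays of an animal differed by a median of 0.0568 to 0.0613, and animals of the same age by 0.103 to 0.155. On the second principal component the animals numbered 3 of both ages stood away from the other 4. Slide 1 held middle-aged replicate 1 and no aged animal, slide 2 held 2 animals of each age, and slide 3 held the second array of middle-aged replicate 3 with both arrays of aged replicate 3. Values within slides are given beside part of the results and, for genes whose values on the 2 slides lay far apart, near the end.

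Of 25446 items tested (14114 with a gene name, 1879 of them predicted loci, and 11332 unnamed probes), 1 passed an adjusted p of 0.05, the threshold used throughout, which is 0.00393% of the items. That item was higher in the aged animals, and 0 were lower by limma. At an unadjusted p under 0.05 there were 2730 items, 1890 higher (7.43%) and 840 lower (3.30%), and these shares are the background for every count of list members below. All 3 aged animals lay above all 3 middle-aged animals for 10.2% of the items and below them for 7.01%. The median difference over all items was 0.02. The share of higher items among those with an unadjusted p under 0.05 was 69.2%. It was 61.9% after normexp background correction, 55.8% after quantile normalization and 50.2% in the authors' deposited series matrix, so the balance between directions moved with the scaling. Unnamed probes held 1134 of the 1890 higher items and 272 of the 840 lower ones.

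Pou3f1 was the gene that passed, and its level rose in the aged RVLM. It encodes a POU-domain transcription factor (also called Oct-6) known from the timing of myelination by Schwann cells and from neural progenitors. Its level was −3.30, −3.20 and −3.01 in middle-aged replicates 1, 2 and 3 and −1.94, −1.86 and −1.92 in the aged replicates. The 3 aged animals lay close together and above every middle-aged animal. The rise was 2.40-fold (1.26 ± 0.10, limma adjusted p = 0.0233), 1.20 within slide 2 and 1.12 within slide 3. In the young animals the level was −3.87, −4.15 and −3.90, so the middle-aged animals lay between the other ages, 0.80 ± 0.10 above the young (adjusted p = 0.034). The call was lost without any 1 of middle-aged replicate 1 or 2 or aged replicate 1, 2 or 3 (adjusted p = 0.0829, 0.120, 0.138, 0.0900 and 0.0665) and when replicate 3 of both ages was left out (0.293). It was also lost with the series matrix, with no filter on dim probes, with the 2 groups fitted alone and with the replicate block (0.0626, 0.115, 0.0521 and 0.132). The difference itself stayed between 0.83 and 1.35 in all of them.

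**Figure D1:**
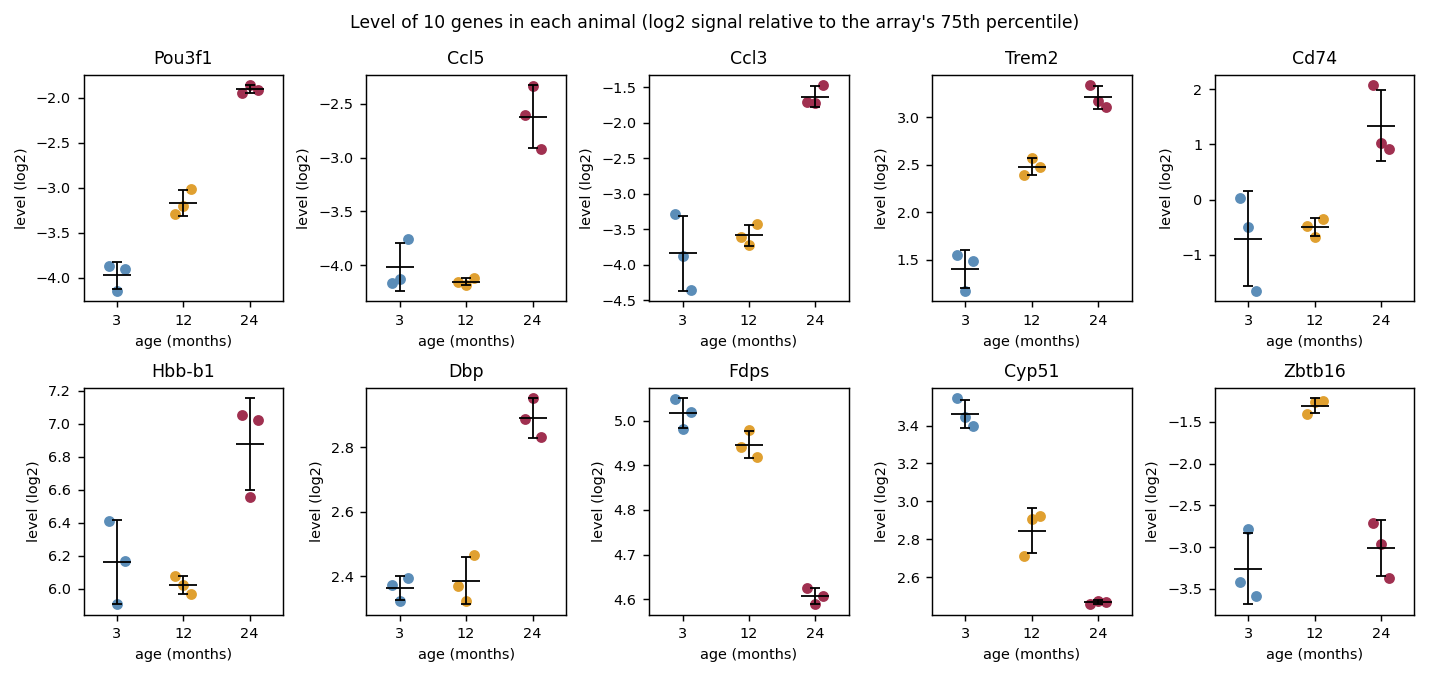
Level of 10 genes (y axis, log2 of the signal relative to the array's 75th percentile) against age in months (x axis); each point is 1 animal, and the black bars are the mean and SD of 3 animals. Pou3f1 climbs at each age, Ccl5, Ccl3, Cd74 and Dbp overlap between 3 and 12 months and are higher at 24, and Zbtb16 is high at 12 months alone.

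Named genes with the smallest p after Pou3f1 did not pass, and their values follow as values. Ccl5, a chemokine that draws T cells and monocytes, had levels of −4.16, −4.19 and −4.12 in the middle-aged animals and −2.60, −2.33 and −2.92 in the aged. Ccl3, a chemokine released by activated macrophages and microglia, had levels of −3.61, −3.73 and −3.42 and of −1.71, −1.73 and −1.47. Neither gene's groups overlapped, and the young animals lay with the middle-aged ones. The differences were 1.53 ± 0.16 for Ccl5 (limma adjusted p = 0.0532) and 1.95 ± 0.23 for Ccl3 (adjusted p = 0.0800). Ccl3 was 3.86-fold higher in the aged animals, with 1.82 within slide 2 and 2.01 within slide 3. With the middle-aged and aged animals fitted alone, Ccl3 passed and Pou3f1 did not.

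The 15 named genes of the higher direction had the smallest p among genes whose ages did not overlap that way. That rule, met by 10.2% of all items, fixed the lack of overlap. The other 12 places went to genes of several kinds. Ccn2, a matricellular protein induced by TGF-beta and by stretch, had levels of −0.59, −0.26 and −0.25 in the middle-aged and 0.87, 0.59 and 0.65 in the aged animals (1.07 ± 0.13, limma adjusted p = 0.0800). Trem2, Itgb2, Lgals3 and Lyve1, genes of microglia and other macrophages, and Dbp, a clock gene, are described with their lists. Fcrl2, an Fc receptor-like gene that the array design calls Msr2, was 2.64-fold higher (1.40 ± 0.21). Matn2, a matrix adaptor protein, differed by 0.94 ± 0.14, Eddm3b, an epididymal secretory protein by name, by 0.75 ± 0.10, and Pygl, a glycogen phosphorylase, by 0.64 ± 0.10. Ttk, a kinase of the spindle checkpoint, differed by 0.63 ± 0.10. Hormad1, a protein of the meiotic chromosome axis, was well above background on 0 of 4 middle-aged arrays and 4 of 4 aged arrays, so it passed the filter on dim probes through the aged group alone and has no value under a filter on both ages. On the scale used here it was at least 1.49-fold higher, a bound that puts the dim arrays at their lowest signal clear of background. Its difference was 0.14 after normexp correction and 0.51 ± 0.28 with slide as a block (unadjusted p = 0.10 by limma), both smaller than that bound. Adjusted p-values of these 12 genes ran from 0.0800 to 0.150.

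Microglial genes were higher in the aged RVLM. All 25 measured members of the 30 listed had a difference above 0, from 0.14 to 0.75, with a median of 0.35 against 0.02 for all items. An unadjusted p under 0.05 was reached by 18 of the 25, all higher, against 7.43% of all items, and 0 passed the adjusted threshold. The count was 13 without aged replicate 1 and 13 when replicate 3 of both ages was left out, and 17 with slide as a block. Relative to the middle-aged mean, the list median was 0.46, 0.29 and 0.36 in the aged animals and −0.08 to 0.10 in the middle-aged. In the young animals it was −0.47 to −0.39, so the 3 ages did not overlap.

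Trem2, the lipid-sensing receptor that marks activated microglia, had levels of 2.39, 2.57 and 2.48 in the middle-aged and 3.34, 3.18 and 3.11 in the aged animals. The groups did not overlap, and the difference was 0.73 ± 0.11 (limma adjusted p = 0.146). Its signalling adaptor Tyrobp differed by 0.55 ± 0.11, with levels of 3.15 to 3.45 at 12 months and 3.68 to 3.96 at 24 months. Itgb2, the beta chain of the leukocyte integrins, had levels of −1.11, −0.92 and −1.05 and of −0.30, −0.40 and −0.50 (0.63 ± 0.09, adjusted p = 0.0866). Ctss, a lysosomal cysteine protease of microglia, differed by 0.55 ± 0.10, and Aif1, which encodes the microglial stain Iba1, by 0.47 ± 0.10. P2ry12, a purine receptor of homeostatic microglia, differed by 0.47 ± 0.11. Cx3cr1, the fractalkine receptor, and Tmem119, both also taken as homeostatic markers, differed by 0.21 ± 0.12 and 0.25 ± 0.15, with overlapping groups for Cx3cr1 and for Tmem119. P2ry12, Cx3cr1, Tmem119, Il18 and the other genes outside the naming rule in this report were chosen after their values were seen.

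Genes of the disease-associated phagocyte state, which microglia take on near dying cells and lipid debris, were higher in part. Of 21 measured members 10 had an unadjusted p under 0.05, all higher, against 7.43% of all items, and the list median was 0.25. Lgals3, the carbohydrate-binding galectin-3 of phagocytes, had levels of 0.26, 0.17 and 0.08 in the middle-aged and 1.46, 1.93 and 1.00 in the aged animals (2.46-fold, 1.30 ± 0.22, limma adjusted p = 0.150). Ccl4, a chemokine encoded beside Ccl3, was well above background on 1 of 4 middle-aged and 4 of 4 aged arrays and so passed the filter through the aged group. Its difference of 1.82 ± 0.40 was 0.56 after normexp correction. Cd52, a glycoprotein of leukocyte surfaces, differed by 1.17 ± 0.28, with levels of −1.63, −2.82 and −1.86 in the aged animals against −3.31 to −3.21. The count was 6 without middle-aged replicate 3. The lysosome and autophagy list had a median of 0.03, with 3 of 26 members higher and 1 lower at that threshold, near the 7.43% and 3.30% of all items. Ctsk, Npc1 and Npc2 were the 3 higher ones (0.38 ± 0.11, 0.20 ± 0.06 and 0.24 ± 0.09).

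Genes that present antigen on MHC class II molecules, which display peptides to helper T cells, showed the largest list median, 1.57 over 9 measured members of 14. Of the 9, 6 had an unadjusted p under 0.05, all higher, and all 9 differences were above 0. On every aged array but not every middle-aged one, 1 of the 9 stood clear of background, so the filter favoured its rise. The other 8 held all 6 and had a median of 1.70. Cd74, the invariant chain, had levels of −0.47, −0.68 and −0.35 in the middle-aged and 2.08, 1.02 and 0.92 in the aged animals. RT1-Da, an alpha chain, had levels of −2.90, −3.02 and −3.01 and of −0.17, −1.19 and −1.42. Aged replicate 1 was the highest animal for both, and neither gene's groups overlapped. The differences were 1.84 ± 0.43 for Cd74 and 2.05 ± 0.49 for RT1-Da (limma adjusted p = 0.257 and 0.259). RT1-Db1 differed by 1.86 ± 0.44 and RT1-Ba by 1.57 ± 0.33. The list median was 2.22, 1.49 and 1.00 in the aged animals and −0.04 to 0.03 in the middle-aged; it was 1.90 within slide 2 and 0.88 within slide 3. It fell to 0.41 with no filter on dim probes and 0.74 after normexp correction. The erythroid list had a higher median within slide 3 (0.97) and with no filter on dim probes (0.64), so MHC class II did not rank first there. The RT1 genes belong to 1 polymorphic family, whose members can share probes.

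MHC class I and immunoproteasome genes, which make and load peptides for killer T cells, had a median of 0.09, with 6 of 19 members higher at an unadjusted p under 0.05. Psmb9, Psmb8 and Psmb10, the 3 inducible catalytic subunits of the immunoproteasome, differed by 0.43 ± 0.13, 0.32 ± 0.11 and 0.22 ± 0.08, and B2m, the light chain of class I molecules, by 0.29 ± 0.10. The count was 2, 1, 3 and 3 when middle-aged replicates 1 and 3 and aged replicates 1 and 3 were left out one at a time. The constitutive proteasome had 0 of 25 members past that threshold and a median of 0.03. Interferon-stimulated genes had 5 of 33 higher, Gbp2, Ifi47, Igtp, Lgals3bp and Rsad2, against 7.43% of all items, and a median of 0.15. That count was 0 without middle-aged replicate 3 and 0 without aged replicate 1, 2 without middle-aged replicate 1 or aged replicate 3, and 3 without young replicate 2.

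Complement genes, whose products tag debris and synapses for removal, were higher for 6 of 20 measured at an unadjusted p under 0.05, among them C2, C3, C4a, Itgam and Serping1, and lower for Masp1. C4a had levels of −1.29, −1.60 and −1.40 in the middle-aged and −0.33, −0.71 and −0.89 in the aged animals (0.79 ± 0.19, limma adjusted p = 0.277). C3, the central protein of the cascade, differed by 0.29 ± 0.10 between these ages and by 1.42 ± 0.10 between middle-aged and young animals, which share the middle-aged animals. Levels of C3 spanned 2.65 to 2.95 at 12 months and 3.00 to 3.22 at 24 months, and the difference was 0.26 within slide 2 and 0.06 within slide 3. C1qb and C1qc, chains of the initiating complex, differed by 0.32 ± 0.10 and 0.20 ± 0.09. The count of 6 was 3, 3 and 1 without middle-aged replicate 1, middle-aged replicate 3 and aged replicate 1.

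Of 9 measured Fc receptors and related immunoreceptors 7 were higher at that threshold, with a median of 0.35. Fcgr2b, the inhibitory Fc receptor, had levels of −0.09, 0.23 and −0.14 in the middle-aged and 0.81, 0.72 and 0.72 in the aged animals (0.75 ± 0.15, limma adjusted p = 0.201). Clec4a1, Pilra and Fcgr1a differed by 0.53 ± 0.14, 0.56 ± 0.17 and 0.35 ± 0.11. The count was 4 without middle-aged replicate 1, without aged replicate 1 or when replicate 3 of both ages was left out.

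Cytokine and chemokine genes had 6 of 20 measured members higher, Ccl5, Cxcl12, Cxcl14, Cxcl9, Tnfsf13 and Tnfsf13b, and a median of 0.28. Of the 20, 1 stood clear of background on every aged array but not on every middle-aged one. The other 19 held all 6 and had a median of 0.26. Cxcl12, a chemokine made by vessels and glia, differed by 0.36 ± 0.10, Cxcl14 by 0.21 ± 0.07 and Tnfsf13b, a survival factor of B cells, by 0.40 ± 0.15. The dimmer probe of Cxcl12 gave −0.10. Il1b and Il18, cytokines of the inflammasome, differed by 0.35 ± 0.40 and 0.17 ± 0.09, with overlapping groups for Il1b. The count of 6 was 2 and 3 without middle-aged replicates 1 and 3, and 10 without young replicate 1. Among 22 receptors 5 were higher, Ifngr1, Il6r, Tgfbr1, Tnfrsf1a and Tnfrsf1b, and the median was 0.04. Tnfrsf1b, the inducible TNF receptor, had levels of −3.45, −4.06 and −3.74 in the middle-aged and −2.73, −3.05 and −2.86 in the aged animals (0.87 ± 0.15, limma adjusted p = 0.153). Its partner Tnfrsf1a differed by 0.31 ± 0.09. The receptor count was 3, 3, 2 and 3 without middle-aged replicate 1, middle-aged replicate 3, aged replicate 1 and aged replicate 3.

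Innate sensors had 8 of 23 measured members higher and a median of 0.12. They were Casp4, Cd14, Nfkbia, Pycard, Tlr2, Tlr3, Tlr4 and Tlr6. Cd14, the co-receptor for bacterial lipopolysaccharide, differed by 0.42 ± 0.11, the inflammatory caspase Casp4 by 0.35 ± 0.11, and Tlr2 and Tlr4, receptors for bacterial cell wall components, by 0.45 ± 0.16 and 0.36 ± 0.13. The count was 4, 4, 2 and 5 without middle-aged replicate 1, middle-aged replicate 3, aged replicate 1 and aged replicate 3.

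**Figure D2:**
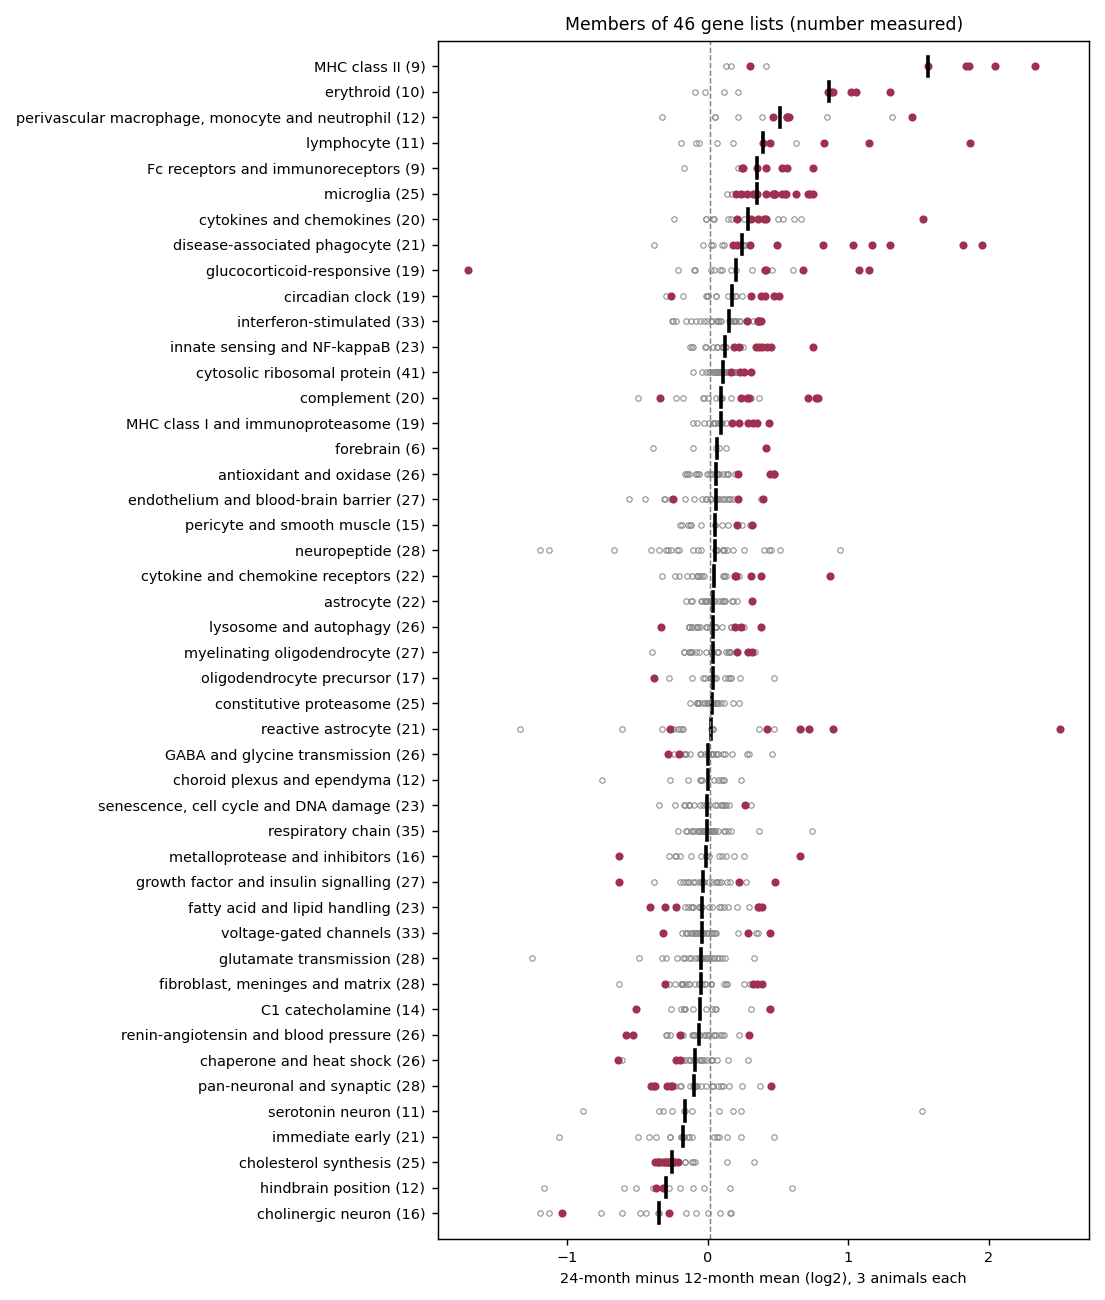
Differences of the measured members of 46 gene lists (x axis, aged minus middle-aged mean in log2 units; y axis, lists with the number measured). Each point is 1 gene, filled where its unadjusted p was under 0.05; the black bar is the list median and the dashed line the median of all items, 0.02. MHC class II (1.57) and erythroid (0.87) genes have the highest medians, and cholinergic (−0.35), hindbrain (−0.30) and cholesterol synthesis (−0.25) genes the lowest.

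Markers of cells that come with blood or vessels also differed. Erythroid genes had 6 of 10 measured members higher out of 19 listed, with a median of 0.87. Hbb-b1, a beta globin chain, had levels of 6.07, 6.02 and 5.97 in the middle-aged and 7.06, 6.56 and 7.02 in the aged animals (0.86 ± 0.16, limma adjusted p = 0.174). Hba-a3, an alpha globin, differed by 0.89 ± 0.20, Slc4a1, the anion exchanger of the red cell membrane, by 1.30 ± 0.24, and Alas2, the erythroid enzyme that starts heme synthesis, by 1.02 ± 0.26. Among the middle-aged animals the list median spanned −0.02 to 0.00, and the aged animals had 1.09, 0.37 and 0.93, lowest in replicate 2. Globin genes are near-identical copies whose probes can share signal. The part of blood in the immune differences was not tested.

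Of 27 listed lymphocyte genes 11 were measured, and 4 of these passed the filter through the aged group alone, where they had to be high. Of the 7 that stood clear of background at both ages, 2 were higher at an unadjusted p under 0.05, and their median was 0.06. Prf1, the pore-forming protein of cytotoxic cells, was well above background on 0 of 4 middle-aged and 4 of 4 aged arrays, with levels of −4.73, −5.35 and −4.69 in the aged animals. Cd3d, a chain of the T cell receptor complex, differed by 0.06 ± 0.09. Gzma, a granzyme, and Cd4 were well above background on 2 and 3 of 4 middle-aged arrays and on 4 of 4 aged arrays. Perivascular macrophage, monocyte and neutrophil genes had 5 of 12 higher, Folr2, Lyve1, Mrc1, Pf4 and S100a9, and a median of 0.51. Of the 12, 1 stood clear of background on every aged array but not on every middle-aged one. The other 11 held all 5 and had a median of 0.56. Lyve1, a hyaluronan receptor of perivascular macrophages, had levels of −3.02, −2.86 and −3.02 in the middle-aged and −2.23, −2.52 and −2.41 in the aged animals (0.58 ± 0.10, limma adjusted p = 0.150). S100a9, a calcium-binding protein of neutrophils and monocytes, was lowest among the aged in replicate 2 (−2.39, −3.01 and −1.54) and differed by 1.45 ± 0.42, 1.098 within slide 2 and 2.65 within slide 3. The perivascular count was 2 when replicate 3 of both ages was left out.

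**Figure D3:**
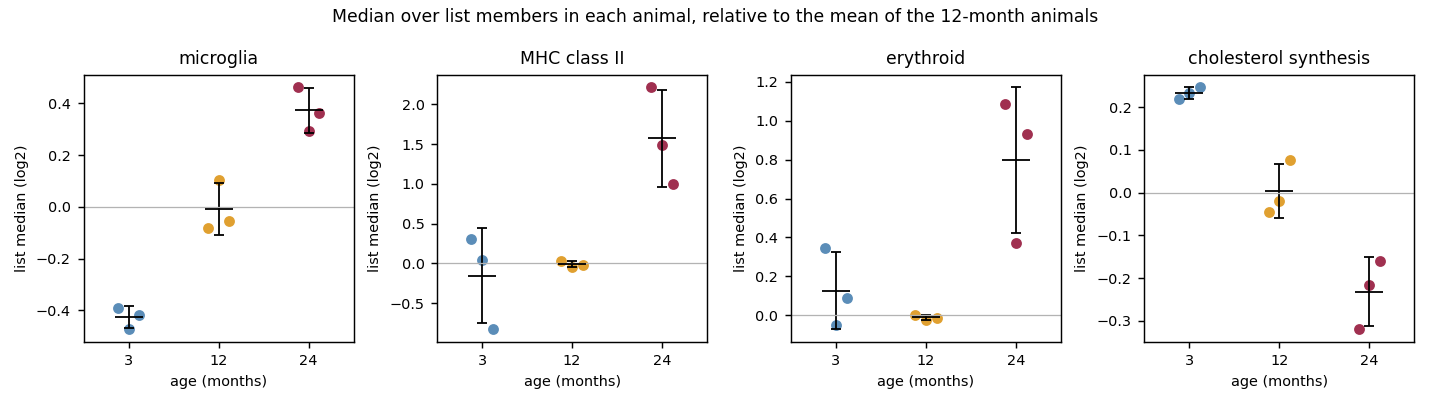
Median over the members of 4 lists in each animal (y axis, log2 relative to the mean of the 12-month animals) against age in months (x axis), with the mean and SD of 3 animals. The microglia median climbs at each age and the cholesterol median declines, whereas MHC class II and erythroid medians differ among the aged animals, 1.00 to 2.22 and 0.37 to 1.09, and young replicate 1 stands at 0.34 for erythroid genes, close to aged replicate 2.

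Genes of cholesterol synthesis were lower in the aged RVLM. Brain cholesterol is made within the brain, by astrocytes and by myelinating oligodendrocytes, and the enzymes of the pathway share control by the SREBP-2 transcription factor. Of 25 measured members of 26 listed, 23 had a difference below 0 and 15 an unadjusted p under 0.05, all lower, against 3.30% of all items. All 3 aged animals lay below all 3 middle-aged animals for 19 of the 25, against 7.01% of all items. The list median was −0.25, and 0 members passed the adjusted threshold. The count of 15 ran from 11 (without middle-aged replicate 3 or aged replicate 1) to 17 as single animals were left out, was 11 when replicate 3 of both ages was left out, and was 15 with slide as a block. Per animal the median was −0.32, −0.22 and −0.16 in the aged, −0.05 to 0.08 at 12 months, and young animals had 0.22 to 0.25.

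The lower genes covered the pathway from its early to its late steps. Hmgcs1, which acts before mevalonate is made, differed by −0.28 ± 0.10. Mvd and Idi1, which turn it into isoprenoid units, differed by −0.36 ± 0.09 and −0.24 ± 0.08. Fdps, which joins those units, had levels of 4.94, 4.98 and 4.92 in the middle-aged and 4.62, 4.59 and 4.61 in the aged animals. The spread within each age was small beside the gap between them. Its difference was −0.34 ± 0.06 (limma adjusted p = 0.161), 1.26-fold lower in the aged animals. Sqle and Lss, which form and close the sterol precursor, differed by −0.24 ± 0.08 and −0.32 ± 0.10. Cyp51, the lanosterol demethylase, had levels of 2.71, 2.91 and 2.92 and of 2.46, 2.48 and 2.47 (−0.38 ± 0.08, adjusted p = 0.226), and the young animals stood at 3.40 to 3.54. Tm7sf2, Nsdhl and Sc5d of the later steps differed by −0.30 ± 0.07, −0.30 ± 0.10 and −0.28 ± 0.07.

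The promoters of 3 of these genes are shown, picked from the members that hold a short motif. They are RefSeq sequences of the build GRCr8, the 250 bases before the annotated start, with the CCAAT box, the letters CCAAT or ATTGG on the other strand, in capitals. Mvd lies at chr19:67414975-67415224, minus strand, Fdps at chr2:176804817-176805066, minus strand, and Lss at chr20:12118231-12118480, minus strand.
Mvd: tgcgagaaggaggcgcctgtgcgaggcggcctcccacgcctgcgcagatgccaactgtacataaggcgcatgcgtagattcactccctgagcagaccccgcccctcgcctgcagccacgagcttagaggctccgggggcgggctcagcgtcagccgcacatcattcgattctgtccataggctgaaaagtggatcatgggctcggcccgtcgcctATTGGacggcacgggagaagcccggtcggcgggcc
Fdps: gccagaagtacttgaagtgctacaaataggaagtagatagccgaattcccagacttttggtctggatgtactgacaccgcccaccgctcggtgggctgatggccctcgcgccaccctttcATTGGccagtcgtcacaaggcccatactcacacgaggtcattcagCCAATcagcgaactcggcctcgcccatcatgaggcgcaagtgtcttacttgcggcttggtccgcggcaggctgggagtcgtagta
Lss: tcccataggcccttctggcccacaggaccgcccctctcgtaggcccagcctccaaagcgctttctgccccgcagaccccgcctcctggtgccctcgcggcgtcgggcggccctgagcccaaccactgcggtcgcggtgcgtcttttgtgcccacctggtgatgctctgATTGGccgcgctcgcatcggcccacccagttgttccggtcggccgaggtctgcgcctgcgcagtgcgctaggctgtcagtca
Fdps holds 2 matches and the others 1 each. Of 17 measured members that have a promoter sequence, 14 held CCAAT (82.4%), against 34.0% of all 33469 promoters. On the circadian clock list 10 of 17 held it (58.8%). Cyp51, which fell most on the cholesterol list, held none, and Srebf2, which differed by 0.14, held 1. List genes were counted by 1 promoter each, whereas the total was over all promoters. The letters TCACNCCAC, a form of the sterol response element, were found in 0 of the 17 cholesterol members and in 0.974% of all promoters. Both strands were searched, a match is a description of the letters in this window, and no match says nothing of the factor.

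Other lipid genes went both ways. Of 23 measured genes of fatty acid and lipid handling 3 were lower at an unadjusted p under 0.05, the lipogenic enzymes Acly, Fasn and Scd, and 3 higher, Abca1, Soat1 and Srebf1. Scd, a desaturase, had levels of 0.00, −0.08 and 0.16 in the middle-aged and −0.44, −0.41 and −0.31 in the aged animals (−0.41 ± 0.09). Abca1, the transporter that exports cholesterol, differed by 0.36 ± 0.08, Soat1, which stores it as esters, by 0.39 ± 0.12, and Srebf1, a master regulator of lipogenesis, by 0.36 ± 0.08. Slc25a1, the carrier that brings citrate out of mitochondria for lipid synthesis, differed by −0.44 ± 0.09. The median of this list was −0.04 and changed sign with the setting.

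Zbtb16, a zinc finger repressor (PLZF) induced by glucocorticoids in many tissues, had the smallest p of the lower genes. Its level was −1.40, −1.26 and −1.24 in the middle-aged and −2.71, −2.96 and −3.37 in the aged animals, and −3.42, −2.78 and −3.58 in the young. The middle-aged animals stood above all others, and young and aged animals overlapped. The difference was −1.71 ± 0.22, 3.27-fold lower in the aged animals (limma adjusted p = 0.0800), −1.59 within slide 2 and −2.10 within slide 3. Between middle-aged and young animals, a comparison with the same middle-aged animals, it was 1.96 ± 0.22 (adjusted p = 0.0232). The test of whether the later change differed from the earlier one gave −3.66 ± 0.39 (adjusted p = 0.0977), the smallest adjusted p of that test.

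On the array Zbtb16 has 2 probes that were kept, and both are shown because they lie far apart in the gene and gave values of the same sign. In the array files, build rn3, A_44_P366142 lies at chr8:51953559-51953618 and A_44_P189428 at chr8:52110317-52110376, both on the minus strand, 156.76 kb apart. Which exon each lies in was not analysed here.
A_44_P366142: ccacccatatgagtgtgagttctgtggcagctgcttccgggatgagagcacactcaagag
A_44_P189428: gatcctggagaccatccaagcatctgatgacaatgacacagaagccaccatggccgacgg
The first gave −1.71 and the second −0.77 ± 0.26 between aged and middle-aged animals. Unnamed probes near the first gave like values: A_44_P194939 at 7.94 kb gave −1.30, A_44_P505440 at 7.61 kb, on the opposite strand, −1.28, and A_44_P854339 at 5.38 kb −1.50. Of the neighbouring genes Nnmt gave −0.28, Htr3a −0.32 and Rexo2 0.02, and Htr3b 0.36. These probes were picked after the value of Zbtb16 was seen, and the files do not say which transcript the unnamed probes belong to.

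**Figure D4:**
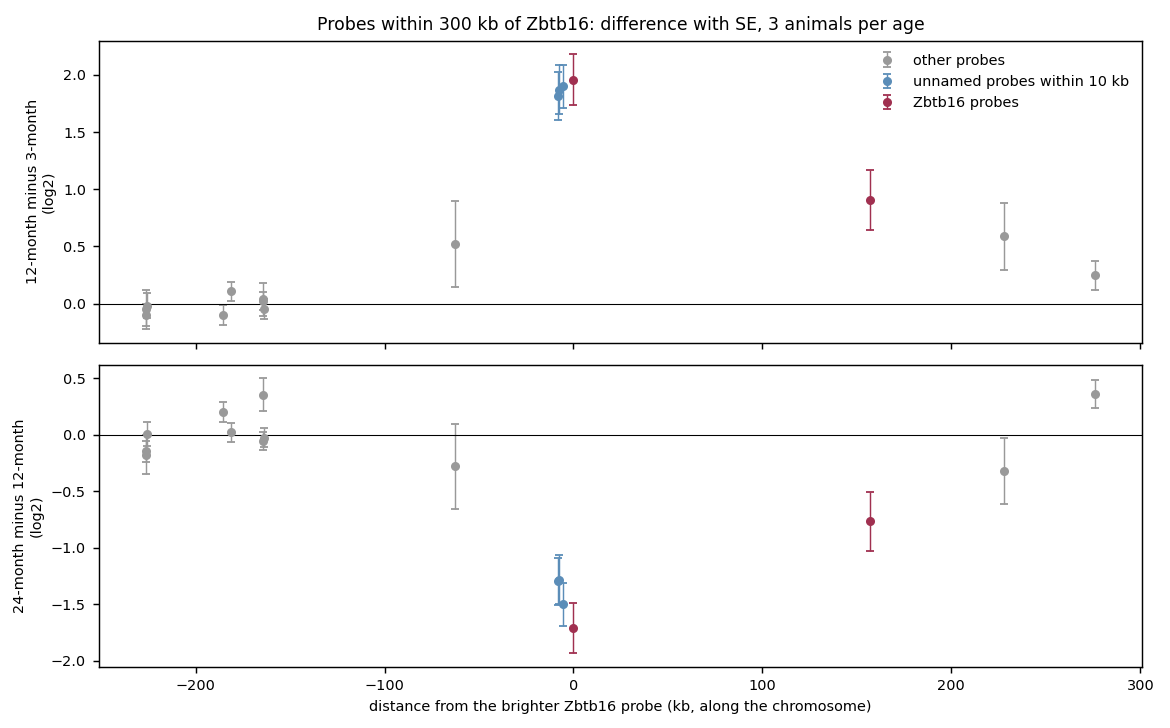
Differences of the 16 kept probes within 300 kb of the brighter Zbtb16 probe (x axis, distance in kb; y axis, log2 difference with SE, 3 animals per age), for middle-aged minus young animals (top) and aged minus middle-aged animals (bottom). The Zbtb16 probes and the unnamed probes within 10 kb lie above 0 at the top and below 0 at the bottom, and the other probes lie between −0.32 and 0.36 at the bottom.

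Most other glucocorticoid-responsive genes did not share this direction: 15 differences on the list lay above 0 and 4, that of Zbtb16 included, below. Of 19 measured members, Zbtb16 included, 5 were higher at an unadjusted p under 0.05, Gpd1, Hif3a, Per1, Sgk1 and Sult1a1, Zbtb16 was the 1 lower, 13 did not reach that threshold, and the median was 0.20. Sgk1, a kinase induced by corticosteroids, had levels of 2.27, 1.83 and 1.41 in the middle-aged and 2.66, 2.84 and 3.45 in the aged animals. Its groups did not overlap, replicate 3 was the extreme animal in both, and it differed by 1.15 ± 0.33 (limma adjusted p = 0.326). Gpd1, an enzyme of glycerol phosphate supply, differed by 0.68 ± 0.22. Fkbp5 and Tsc22d3, often used as reporters of glucocorticoid receptor activity, differed by −0.09 ± 0.15 and 0.02 ± 0.09, with overlapping groups. The count of 5 was 2, 8 and 3 without middle-aged replicate 3, aged replicate 2 and aged replicate 3, and 1 when replicate 3 of both ages was left out.

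Of 19 measured clock genes 5 were higher and 1 lower at an unadjusted p under 0.05, against 7.43% and 3.30% of all items, and 0 passed the adjusted threshold. Dbp, a transcription factor driven directly by the clock, had levels of 2.37, 2.32 and 2.47 in the middle-aged and 2.89, 2.95 and 2.83 in the aged animals, with no overlap (0.50 ± 0.07, limma adjusted p = 0.0866). Per2, a repressor of the clock, had levels of −0.43, −0.68 and −0.48 and of −0.09, −0.04 and −0.04 (0.47 ± 0.09). Bhlhe41, another repressor, differed by 0.38 ± 0.09, Per1 by 0.41 ± 0.13 and Nr1d2 by 0.31 ± 0.10. Bmal1, the activator, had levels of 0.60, 0.61 and 0.61 and of 0.37, 0.20 and 0.47 (−0.26 ± 0.10). These 6 genes are the ones that reached the unadjusted threshold. Nr1d1, a repressor like Nr1d2, differed by −0.29 ± 0.15, Per3 by 0.24 ± 0.12 and Tef, of the same family as Dbp, by 0.06 ± 0.07. The list median was 0.18 over all animals and 0.02 within slide 2. The labels used here give no time of day at which tissue was taken. The count of 5 higher members was 3 without middle-aged replicate 3.

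The 15 named genes of the lower direction had the smallest p under the same rule of no overlap, met by 7.01% of all items. Their limma adjusted p-values ran from 0.0800 to 0.246. Besides Zbtb16, Fdps, Cyp51, Scd and Slc25a1 they were genes with no list in common. Serpinb6b, a serine protease inhibitor, differed by −0.60 ± 0.09. Igf2bp2, which binds mRNAs of growth genes, had levels of −3.34, −3.30 and −3.15 in the middle-aged and −3.83, −3.87 and −3.98 in the aged animals (−0.63 ± 0.10). It stood at −2.15 to −1.81 in the young animals, so each age lay below the one before. Mmp14, a membrane-anchored matrix protease, had levels of 1.17, 1.11 and 1.37 and of 0.65, 0.47 and 0.63 (−0.63 ± 0.12). Bok, of the BCL2 family, Slco3a1, an organic anion transporter, and Cdyl2, a chromodomain protein, differed by −0.66 ± 0.14, −0.39 ± 0.09 and −0.34 ± 0.08. Bok was at −1.02 within slide 2 and −0.33 within slide 3. Prkag3, a subunit of AMP-activated kinase, Tmc4 and Cct8l2 differed by −0.41 ± 0.08, −0.45 ± 0.09 and −0.30 ± 0.07. Prkag3 was at −0.11 after normexp correction and −0.33 ± 0.19 with slide as a block (unadjusted p = 0.11 by limma). Arhgap28, a GTPase-activating protein, was well above background on 2 of 4 aged arrays and differed by −0.51 ± 0.09. Its difference was −0.03 after normexp correction and −0.44 ± 0.30 with slide as a block (unadjusted p = 0.17 by limma).

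For the neurons of the RVLM the values were mixed. Th, the first enzyme of catecholamine synthesis, had levels of 1.59, 1.57 and 1.14 in the middle-aged and 2.12, 1.11 and 1.21 in the aged animals. The groups overlapped, and the difference was 0.05 ± 0.26. Dbh, which makes noradrenaline, had levels of 0.47, 0.31 and 0.47 and of −0.07, −0.49 and 0.26. Its groups did not overlap, and it differed by −0.51 ± 0.20 (limma adjusted p = 0.438), −0.68 within slide 2 and −0.17 within slide 3. Of 14 measured genes of C1 neurons 1 was higher at an unadjusted p under 0.05, Lmx1b, and 1 lower, Dbh, near the 7.43% and 3.30% of all items, with a median of −0.06. The lower count was 0 without middle-aged replicate 1, aged replicate 1 or aged replicate 2, 2 without middle-aged replicate 3 and 4 without aged replicate 3.

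Cholinergic genes had a median of −0.35 over 16 measured members, with 2 lower at that threshold, Ache and Chrna3, against 3.30% of all items, and 13 below 0. The count was 5 without aged replicate 2, 3 without young replicate 3, and 1 without middle-aged replicate 1 or 2 or aged replicate 1 or 3. Ache, which breaks down acetylcholine, had levels of 3.28, 3.22 and 3.17 in the middle-aged and 3.00, 2.97 and 2.88 in the aged animals (−0.27 ± 0.08), while its other 2 probes, which were dimmer, gave 0.05 and 0.02. Chrna3, a nicotinic receptor subunit, ranged from −4.77 to −3.01 among the aged animals and differed by −1.04 ± 0.41. The list median was −0.64, 0.12 and −0.49 in the aged animals, so aged replicate 2 lay with the middle-aged ones (−0.21 to 0.28), and against the young it was 0.45 in the middle-aged animals. Cholinergic genes also mark motor neurons of nuclei next to the RVLM. Hindbrain position genes had a median of −0.30 over 12 members and 2 lower, Hoxb2 and Hoxc5, a count that ran from 0 (without middle-aged replicate 3 or aged replicate 2) to 5 (without aged replicate 3); replicate 3 was the highest animal of both ages (0.31 middle-aged and 0.17 aged). The part of punch position in these values was not tested.

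Pan-neuronal and synaptic genes had a median of −0.10 over 28 members. At an unadjusted p under 0.05, 6 were lower, Nefl, Stmn2, Stx1a, Syn1, Tubb3 and Uchl1, and Camk2a was higher. Uchl1, an abundant neuronal deubiquitinase, had levels of 6.20, 6.26 and 6.11 in the middle-aged and 5.86, 5.95 and 5.98 in the aged animals (−0.26 ± 0.08). This count of 6 was 1, 3, 3, 3, 2 and 3 without young replicate 1, young replicate 3, middle-aged replicate 2, middle-aged replicate 3, aged replicate 1 and aged replicate 3. Glutamate transmission had 0 of 28 and GABA and glycine transmission 2 of 26 members past that threshold, both lower, among them the glycine receptor subunit Glra2 (−0.28 ± 0.08). Slc17a6 differed by −0.01 ± 0.17. Among 33 voltage-gated channels the sodium channel subunit Scn2b was one of those with an unadjusted p under 0.05 (0.28 ± 0.12).

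Genes that bear on blood pressure had 4 of 26 measured members past an unadjusted p of 0.05. Edn1, the vasoconstrictor endothelin precursor, had levels of −3.94, −4.14 and −3.62 in the middle-aged and −4.32, −4.37 and −4.76 in the aged animals (−0.58 ± 0.15). Adra2a, the receptor through which clonidine-like drugs lower sympathetic activity, had levels of −1.72, −1.88 and −1.88 and of −2.20, −2.27 and −2.61 (−0.54 ± 0.16). Gucy1b1, a subunit of the nitric oxide receptor, differed by −0.20 ± 0.08. The groups of these 3 genes did not overlap, and their limma adjusted p-values ran from 0.292 to 0.428. Agtr1a, the angiotensin II receptor of RVLM neurons, differed by −0.06 ± 0.09, with overlapping groups. Its dimmer probe gave −0.42 (unadjusted p = 0.14 by limma), and the mean of its probes −0.24. By limma, 0 of 28 neuropeptide genes and 0 of 21 immediate early genes reached an unadjusted p under 0.05, and Fos differed by −0.18 ± 0.24.

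Astrocyte and myelin genes are given next. Gfap, the filament of reactive astrocytes, had levels of 1.54, 1.07 and 1.79 in the middle-aged and 2.57, 2.58 and 1.94 in the aged animals. The groups did not overlap, and the difference was 0.90 ± 0.23 (limma adjusted p = 0.292), 1.15 within slide 2 and 0.14 within slide 3. Cd44, a hyaluronan receptor, behaved likewise within slides (0.72 ± 0.21 over all animals, 0.87 on slide 2 and 0.12 on slide 3). Timp1, an inhibitor of matrix proteases, had levels of −0.32 to −0.27 and of 0.43, 0.56 and 0.11 (0.66 ± 0.21). The reactive astrocyte list had 5 of 21 members higher and 1 lower with a median of 0.02, against 7.43% and 3.30% of all items. It had 3 higher without middle-aged replicate 2 or aged replicate 2. Of the 19 members well above background on every array of both ages, 4 were higher and 1 lower. The list of general astrocyte markers had 1 of 22 higher, Sox9 (0.31 ± 0.14). Myelin genes had a median of 0.03, with Myrf, Nkx6-2 and Opalin higher among 27 (0.28 ± 0.08, 0.32 ± 0.09 and 0.21 ± 0.07) and 0 lower, near the shares of all items, 7.43% and 3.30%. Nkx6-2 was at 0.34 within slide 2 and 0.0032 within slide 3, and its dimmer probe gave −0.10. Mbp, myelin basic protein, differed by −0.40 ± 0.18 with overlapping groups and Ugt8, a galactolipid enzyme, by −0.13 ± 0.12.

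Vessel, matrix and growth factor lists had medians between −0.05 and 0.06. At an unadjusted p under 0.05 the endothelial list had 2 of 27 members higher and 1 lower. The matrix list had 3 of 28 higher and 1 lower, and the growth factor list 2 of 27 higher and 1 lower. These counts are near the 7.43% and 3.30% of all items. Vwf, the endothelial clotting factor, differed by 0.39 ± 0.14 and Tfrc, the transferrin receptor, by −0.25 ± 0.10. Fn1, Lama4 and Fbn1, matrix proteins, differed by 0.32 ± 0.10, 0.38 ± 0.13 and 0.35 ± 0.13 and Col6a2 by −0.31 ± 0.11. Fgf2 and Insr, a growth factor and the insulin receptor, differed by 0.48 ± 0.14 and 0.23 ± 0.09.

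Housekeeping systems differed by small amounts. Cytosolic ribosomal protein genes were above 0 for 38 of 41 members, with a median of 0.11 and 4 higher at an unadjusted p under 0.05, near the 7.43% of all items, a count that ran from 0 (without aged replicate 3) to 8 (without middle-aged replicate 2). Chaperone genes were below 0 for 20 of 26, with a median of −0.09 and Hspa1a, Hspa8 and Hsp90ab1 lower. Hspa1a, the inducible heat shock protein, had levels of −1.34, −1.62 and −2.01 in the middle-aged and −2.37, −2.25 and −2.27 in the aged animals (−0.64 ± 0.16, limma adjusted p = 0.289). The respiratory chain had 0 of 35 members past that threshold and a median of −0.01. Among 26 antioxidant and oxidase genes Gsta1, a glutathione transferase, Cyba and Ncf1, subunits of the phagocyte NADPH oxidase, and Nfe2l2, the regulator of antioxidant genes, were higher (0.47 ± 0.10, 0.44 ± 0.11, 0.47 ± 0.18 and 0.21 ± 0.08). That count was 2 without aged replicate 1 and 2 without aged replicate 2. Senescence, cell cycle and DNA damage genes had 1 of 23 higher, Gadd45b (0.27 ± 0.10).

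Late and early life were also set side by side. Over all items 0 passed the test of whether the change from 12 to 24 months differed from that from 3 to 12 months, with 1346 at an unadjusted p under 0.05 (5.29%). Both changes share the middle-aged animals, so a chance deviation of those animals enters them with opposite sign. The microglia list had medians of 0.42 early and 0.35 late, and cholesterol synthesis of −0.19 and −0.25. MHC class II had 0.10 and 1.57, erythroid genes −0.13 and 0.87, and myelin genes −0.27 and 0.03. Cholinergic genes had 0.45 and −0.35.

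The slide an array lay on was examined through the 2 slides that hold both ages. The 30 genes with the smallest p-values and no overlap between the ages were chosen on these same animals, so their sign within slides follows from that choice and is no check of them. Of the 18 further genes named whatever their values, 15 had the same sign within both slides as over all animals, and Ugt8, Slc17a6 and Fos did not. Slides 2 and 3 hold every animal of the 2 ages but middle-aged replicate 1. Agreement in sign is therefore partly built in and is no check of these 18 genes either. Some genes had values far apart on the 2 slides. On slides 2 and 3, Itgam differed by 1.03 and 0.06, Hif3a by 1.39 and 0.22, Lmx1b by 0.67 and 0.12, and Uchl1 by −0.31 and −0.07. The larger value was on slide 3 for Nfkbia (0.45 and 1.47), Camk2a (0.21 and 0.97), Gpd1 (0.64 and 1.23) and Edn1 (−0.47 and −1.12). Slide 3 holds 1 animal of each age, so slide and animal cannot be told apart there. The other probe of Cxcl12 gave −0.10 and that of Fbn1 0.07, unlike the brighter probe that stands for the gene, and 1 or more of the other probes of B2m, Masp1 and Sox9 also gave values near 0. For Srebf1, Fn1 and Npc1 the other probe gave 0.12, 0.11 and 0.07, smaller than the brighter probe of each. That of Hsp90ab1 gave −0.105 (unadjusted p = 0.69 by limma). Not every gene with more than 1 probe is listed here.

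**Figure D5:**
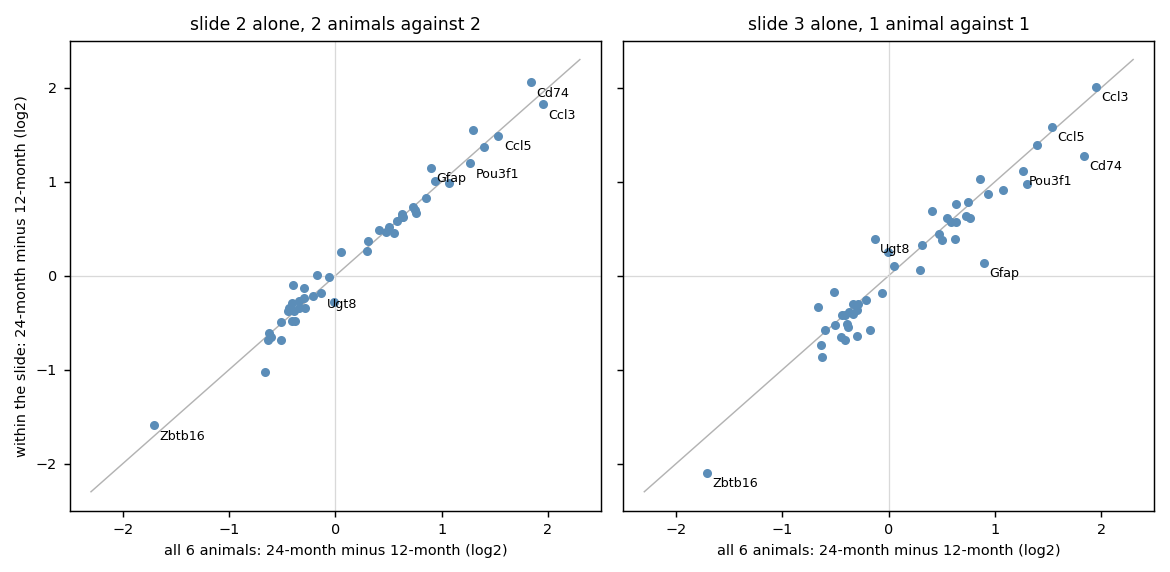
Difference within slide 2 (left) and within slide 3 (right) on the y axis against the difference over all 6 animals on the x axis, in log2 units, for 48 named genes; the grey line marks equal values, and the axes share animals. Cd74 stands at 2.06 on slide 2 and 1.28 on slide 3, and Gfap at 1.15 and 0.14.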

How the data were processed

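RVLM micropunches of 9 rats were hybridised to 12 whole rat genome arrays with 1 dye. Per the labels' protocols, RNA came from the RNeasy Lipid Tissue kit with an integrity number of at least 7. Per the submitters' processing notes and the file headers, the authors made the deposited intensity values with Agilent Feature Extraction 9.5.1.1; the processed signal is background-subtracted and detrended, with no scaling between arrays. The deposited flags mark outlier, saturated and well-above-background spots. The deposited series matrix holds a score with mean 0 and SD 1 on each array, linear in the log signal (correlation 1); its log base and the choice of its features are not known. The RNA of each sample gave 43379 non-control spots.

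Signals were taken as log2, 92 to 140 outlier spots on each of the 8 arrays were set missing, spots of a probe were averaged and the 75th percentile of the array was subtracted. A probe was kept where all arrays of 1 age or more flagged it as well above background, which left 29797 of 41012. Gene names came from RefSeq (GRCr8) by accession (10735 and 117 probes by systematic and listed accession) or by symbol or synonym (5537 and 3705), from the file for 3314, and 17604 had none. The kept probe with the highest mean stood for a gene, so 25446 items were tested; 7 lacked a value in at least 1 animal. Group means over all 9 animals were fitted in R 4.3.3 by limma 3.58.1 (prior degrees of freedom 2.58) and p-values, two-sided, were adjusted by Benjamini-Hochberg over all items. The fit was tested on simulated data. Probe positions are on rn3 and promoters on GRCr8.

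Members and the 46 gene lists (1129 genes, 954 measured) were chosen with earlier results of these data known, so no p-value is given for a list; lists are described by counts and medians. Named genes were, in each direction, the 15 that passed or had the smallest p with no overlap between ages, predicted loci left out, up to 4 members of each list by smallest p, and 22 genes whatever their values. The alternatives, 23 refits and the values within 2 slides, are given in the closing section. P-values measure the spread between these animals. Some genes are not reported here.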

Additional observations from a re-analysis of the deposited data

How the results depend on the processing

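Calls between aged and middle-aged animals numbered 1 and were 4 with normexp, 0 with the series matrix, 0 with no filter on dim probes, 3 with a filter on both ages, 28 with animal as a random block, 0 with the replicate block, 11 with a trended robust prior, 2 with the first array of each replicate 3, 0 without replicate 3 of both ages (added after seeing the data), and 0 to 3 as single animals were left out (0 without middle-aged replicate 1 or any aged replicate). Items with an unadjusted p under 0.05 numbered 2730 and were 1787 with normexp, 1743 without replicate 3 of both ages, and 1803 to 3134 as single animals were left out. Items whose later change differed from the earlier one numbered 0 and were 4 with normexp, 3 with slide as a block, 6 with animal as a random block, 5 with a trended robust prior and 0 to 4 as single animals were left out. The main fit did not pair animals by replicate number. Deviations of same-numbered animals from the mean of their age correlated at 0.20, 0.06 and 0.37 for replicates 1, 2 and 3.

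Of the genes followed, these changed sign: Ugt8 (0.0453 with the second array of each replicate 3, 0.39 on slide 3), Th (−0.27 to 0.23 as single animals were left out), Slc17a6 (0.0592 in the matrix, 0.25 on slide 3, −0.21 to 0.091 with single animals left out) and Fos (0.0084 on slide 2, −0.31 to 0.0221 with animals left out, the latter without replicate 3 of both ages). Of 46 list medians 24 crossed 0 under at least 1 setting, and for 19 of these the median was within 1 SD between animals. The other 5 were lysosome (−0.0206 on slide 3), antioxidant (−0.0061 on slide 2), interferon (−0.0195 without replicate 3 of both ages, up to 0.18 without aged replicate 2), lipid handling (0.013 in the matrix, 0.0083 on slide 2, 0.0366 on slide 3, −0.0434 to 0.0401 with animals left out) and renin-angiotensin (−0.10 to 0.0046 with animals left out). The cause of these changes was not tested. Pou3f1 stayed past the threshold in 13 alternatives and left it in 10.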

Other observations

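Unnamed probes at the Mpeg1 locus, chosen after their values were seen, were higher in the aged animals beside Mpeg1 itself, which encodes perforin-2 of macrophages. In build rn3 the Mpeg1 probe lies at chr1:215547599-215547658, plus strand, and it differed by 0.91 ± 0.25. The probe A_44_P602702, at 1.62 kb from it on the same strand, had levels of −1.24, −1.39 and −1.47 in the middle-aged and −0.39, −0.60 and −0.69 in the aged animals (0.81 ± 0.10). The probe A_44_P340587, at 2.51 kb, differed by 0.78 ± 0.10. The nearest named gene beyond them, Dtx4, gave −0.08 and −0.39 on 2 probes. The predicted locus LOC688972 had levels of −4.84, −5.10 and −5.04 and of −3.89, −4.01 and −4.15 (0.98 ± 0.10, limma adjusted p = 0.0531).

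Single arrays or animals carried a few large values. Htr5b, a serotonin receptor gene, stood at 2.24 in aged replicate 3, on both of its arrays (2.25 and 2.23), and at −2.59 and −2.56 in the other aged animals. Serpina3n, an acute-phase protease inhibitor, stood near −4 in middle-aged replicate 3 and aged replicates 1 and 3 (−3.92, −4.03 and −4.12) and at −0.17 to 0.26 in the other 3 animals. In middle-aged replicate 3, Sdhc, Slc2a3, Twf1 and Wwox were at −0.56, −8.14, −4.84 and −7.94 on the slide 2 array and at 3.94, −1.49, 1.40 and −0.58 on the slide 3 array. Of 25441 items, 36 differed by over 2 log2 units between these 2 arrays.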
